A study of Mus musculus with 2 samples.

Results

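The noncoding genes of the 4 mouse Hox clusters were examined in the embryonic limb. They were taken from 4 windows on mm10, chr6:52140000-52290000 (cluster A), chr11:96180000-96380000 (B), chr15:102910000-103050000 (C) and chr2:74650000-74780000 (D). Every gene in these windows that GENCODE M21 does not type as protein-coding was kept, apart from 7 miRNA genes and 10 genes shorter than 150 nt. This left 31 noncoding genes of the 43346 Ensembl genes in the tables. Cluster A held 16 of them, cluster B 5, cluster C 3 and cluster D 7. By annotated type, 10 were short RNA entries (misc_RNA), 9 antisense genes, 6 lincRNA genes, 3 processed transcripts and 3 of other types. The windows also held 39 protein-coding Hox genes and 4 other coding genes.

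The RNA came from limbs of B6NCrl mouse embryos at 12.5 days, with no treatment or mutation named in the labels. There was 1 group of 2 biological replicates. Replicate 1 pooled 88 embryos and replicate 2 pooled 68, males and females together, so no single animal or sex can be read. Each library used 10 ng of total RNA longer than 200 nt, and forelimb and hindlimb were not kept apart. The deposited expected counts summed to 29810026 and 29938721. All 7 limb mesenchyme markers were detected, at 29.6 to 395 TPM, while 0 of 4 neural tube, 0 of 3 trunk and kidney and 0 of 2 gut markers were. Nerve markers were present, 6 of 8 detected, and summed to 55.3 TPM in replicate 1 and 77.8 TPM in replicate 2. Among the limb markers, Tbx5 of the forelimb measured 35.2 and 24.1 TPM, while Tbx4 and Pitx1 of the hindlimb measured 32.3 and 37.1 TPM and 142 and 173 TPM. The part of these differences in the levels below was not tested. TPM is the deposited level of a transcript per length, scaled to a fixed sum in each library. Values are TPM in replicate 1 and replicate 2, and means are given ± SD (n = 2). In whole tissue, fewer cells making an RNA and less RNA per cell cannot be told apart.

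Hox genes encode homeodomain transcription factors that pattern the body axis and the limb, and within a cluster they all run in the direction that places the posterior genes at its 5′ end. In the limb bud the posterior genes of clusters A and D set the identity of the upper arm, forearm and hand segments. Long noncoding RNAs start between and opposite to these genes. Hottip lies beyond Hoxa13 and is known for binding Wdr5 and bringing the Mll histone methyltransferase complex to posterior Hoxa genes. Hotair lies between Hoxc11 and Hoxc12 and has been reported to bind Polycomb and Lsd1 complexes, although what it does in the mouse has been debated. Hotairm1 lies near the anterior end of cluster A and was first described in myeloid cells. Antisense RNA of Hoxa11 has been described in the distal limb bud, where Hoxa11 itself is silent.

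The sequences below belong to the locus with the highest noncoding level, Hoxa11os, and to Hottip. Inside Hoxa11os the annotation holds 4 short single-exon entries on the same strand, Gm27492 (chr6:52246399-52246585), Gm27817 (chr6:52247421-52247653), Gm27454 (chr6:52248332-52248535) and Gm27543 (chr6:52249299-52249475). They are shown from the GENCODE M21 transcript sequences, plus strand of mm10, because their levels can be read only against the exons around them. Capitals mark bases that lie in an annotated exon of Hoxa11os. All 187 bases of Gm27492 and all 177 of Gm27543 were exonic, 113 of the 204 bases of Gm27454 were, and none of the 233 bases of Gm27817 were.
Gm27492: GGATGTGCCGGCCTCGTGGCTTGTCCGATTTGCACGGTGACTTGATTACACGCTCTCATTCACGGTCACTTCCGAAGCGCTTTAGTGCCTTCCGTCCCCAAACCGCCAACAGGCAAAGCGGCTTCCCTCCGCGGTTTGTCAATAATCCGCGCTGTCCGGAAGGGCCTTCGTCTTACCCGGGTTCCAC
Gm27817: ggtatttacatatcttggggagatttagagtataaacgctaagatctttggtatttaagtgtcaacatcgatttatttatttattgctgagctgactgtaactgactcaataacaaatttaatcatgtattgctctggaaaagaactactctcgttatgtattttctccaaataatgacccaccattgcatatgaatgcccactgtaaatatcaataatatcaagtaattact
Gm27454: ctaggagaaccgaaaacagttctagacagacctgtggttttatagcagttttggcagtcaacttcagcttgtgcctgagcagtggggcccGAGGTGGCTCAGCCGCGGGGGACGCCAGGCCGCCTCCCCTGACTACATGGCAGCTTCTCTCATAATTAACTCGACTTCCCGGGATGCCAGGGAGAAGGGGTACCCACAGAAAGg
Gm27543: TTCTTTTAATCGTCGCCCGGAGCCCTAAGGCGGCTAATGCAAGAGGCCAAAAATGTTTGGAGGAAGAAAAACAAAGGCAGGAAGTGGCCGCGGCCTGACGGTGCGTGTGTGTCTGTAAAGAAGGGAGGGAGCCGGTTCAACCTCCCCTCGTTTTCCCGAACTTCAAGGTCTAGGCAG

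Hoxa11os (ENSMUSG00000086427.4, chr6:52244393-52249799, plus strand) has 6 annotated transcripts and runs opposite to Hoxa11. The 250 bases before the Hoxa11 start (chr6:52245811-52246060, minus strand, RefSeq, GRCm38.p6) are shown because 2 Hoxa11os transcripts begin inside them, 159 and 179 bases from the Hoxa11 start and pointing away from it. Capitals mark the 98 bases that lie in Hoxa11os exons.
Hoxa11 upstream: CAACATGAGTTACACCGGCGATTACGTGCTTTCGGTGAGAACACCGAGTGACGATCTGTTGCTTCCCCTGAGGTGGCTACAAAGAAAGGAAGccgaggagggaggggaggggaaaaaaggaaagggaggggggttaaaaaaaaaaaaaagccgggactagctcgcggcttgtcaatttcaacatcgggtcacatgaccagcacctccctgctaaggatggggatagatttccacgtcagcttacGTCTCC
The RefSeq promoter window of Hoxa11os (chr6:52244993-52245292, plus strand) is shown because it lies almost wholly inside Hoxa11. It surrounds the start of ENSMUST00000134512.3, which held only 7.62% and 6.76% of Hoxa11os. Capitals mark the 282 of 300 bases that belong to a Hoxa11 exon.
Hoxa11os promoter: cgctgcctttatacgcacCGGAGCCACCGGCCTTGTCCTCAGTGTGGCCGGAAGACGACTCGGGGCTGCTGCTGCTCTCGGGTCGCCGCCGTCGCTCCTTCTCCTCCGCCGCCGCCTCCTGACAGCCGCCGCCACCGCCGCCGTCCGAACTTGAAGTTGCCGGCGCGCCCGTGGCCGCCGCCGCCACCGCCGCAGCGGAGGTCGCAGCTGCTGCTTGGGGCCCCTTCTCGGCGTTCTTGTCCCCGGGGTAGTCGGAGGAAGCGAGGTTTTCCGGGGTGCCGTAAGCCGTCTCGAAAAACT
The Hottip window (chr6:52262525-52262824, plus strand) is shown for 1 match, in capitals, to CCAATAAA, a motif that homeodomain proteins of the Hox13 group are known to prefer.
Hottip promoter: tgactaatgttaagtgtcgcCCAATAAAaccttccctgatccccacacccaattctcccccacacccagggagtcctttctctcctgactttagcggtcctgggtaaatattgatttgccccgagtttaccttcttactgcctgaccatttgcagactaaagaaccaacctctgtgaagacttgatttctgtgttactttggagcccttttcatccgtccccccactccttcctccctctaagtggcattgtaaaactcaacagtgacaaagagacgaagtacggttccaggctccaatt
The match starts 230 bases before the Hottip start site. The motif was chosen after this sequence had been read and was searched on both strands. It occurred in 367 of 32851 RefSeq promoter windows of the same length (1.12%), and in 1 of the 6 windows that matched one of the 31 genes by symbol. A match of letters is a description of the sequence only.

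Of the 31 noncoding genes, 19 were detected, which here means 1 TPM or more in each library. The same limit was met by 33.5% of all Ensembl genes and by 10.0% of the 15680 genes that are not protein-coding, leaving out miRNA and genes under 150 nt. Of the 20 noncoding genes with a long noncoding type, 14 were detected, against 13.8% of 6827 such genes in the genome. Of the 10 short misc_RNA entries, 5 were detected, against 5.80% of 431. All 5 lie inside Hoxa11os or Hottip, which were detected too. All but Gm27817 also share exon bases with these longer genes, so their reads may belong to them. Cluster A held 12 of the detected genes, cluster D 4, cluster B 2 and cluster C 1. The median level of the 31 genes was 2.25 TPM, beside 3.485 TPM for the 39 protein-coding Hox genes, of which 27 were detected, and 0 TPM for the 15680 genes named above. These are counts and medians, with no test.

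**Figure D1:**
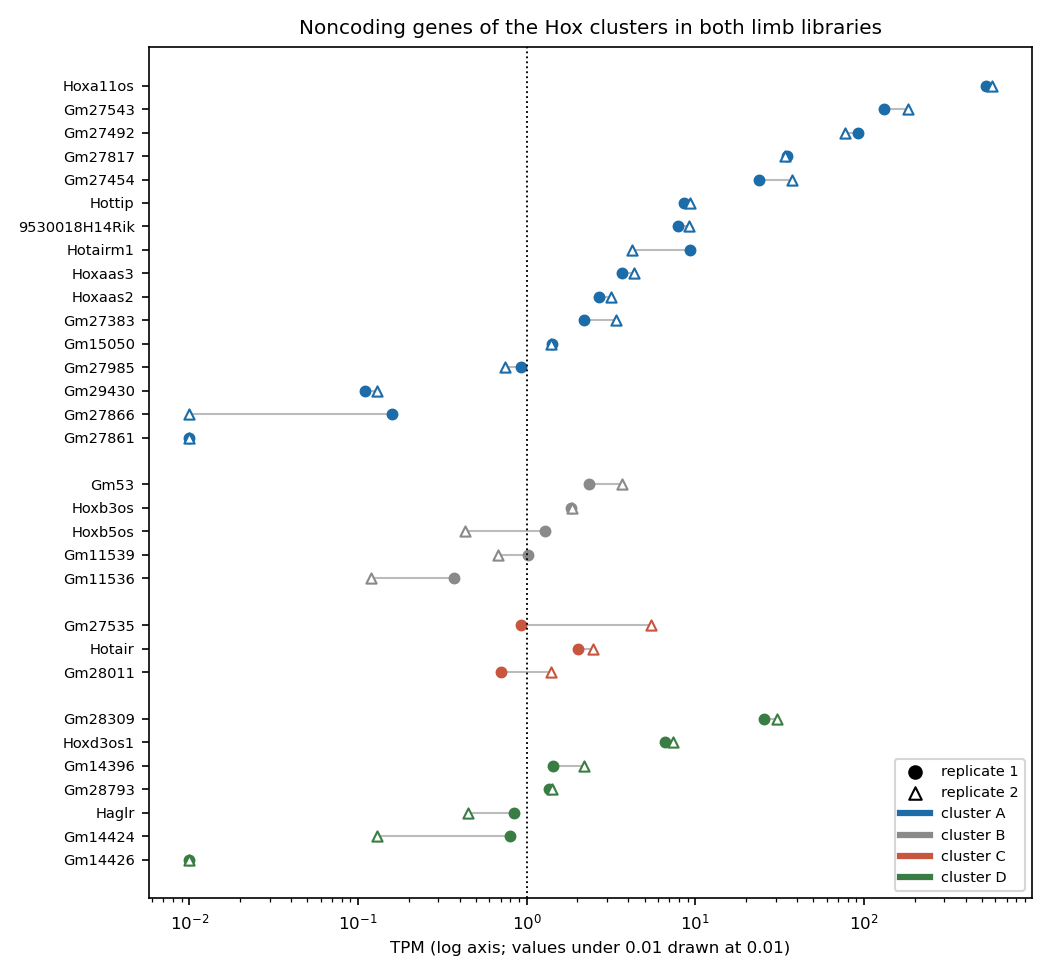
TPM (log axis) of each of the 31 noncoding genes in replicate 1 (filled circles) and replicate 2 (open triangles), grouped by Hox cluster (colour) and joined by a line; the dotted line marks 1 TPM and values under 0.01 are drawn at 0.01. Hoxa11os stands at the top of cluster A at 526 and 573 TPM, and the lines are longest for genes near or below 1 TPM.

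Hoxa11os was the highest noncoding gene of the clusters. It measured 526 and 573 TPM (550 ± 33.1), on 9273 and 10101 expected counts. Its mean ranked 235 among 42462 genes with an M21 type and 6 among the 6827 long noncoding genes. Its level was above that of each of the 39 protein-coding Hox genes in both libraries, at 2.35 and 2.31 times Hoxa10, the highest of them (224 and 248 TPM). Hoxa11, the gene opposite, which encodes a factor needed for the forearm and lower leg, measured 73.4 and 82.6 TPM. Hoxa11os was 7.17 and 6.94 times as high, a log2 ratio of 2.82 ± 0.03. Both libraries showed the same order, and the ratio differed little between them.

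Hoxa11os shares 800 exon bases with Hoxa11 on the other strand, and no source used here states whether the counting used strand. Reads there may belong to either gene. By the deposited division of reads, most of the level lay outside that stretch. Of the 6 transcripts, 4 have no base on a Hoxa11 exon, and these summed to 476 and 522 TPM, 6.49 and 6.32 times Hoxa11. The 885 nt transcript ENSMUST00000137729.1, which begins 411 bases upstream of the Hoxa11 start, held 40.5% and 41.3% of the gene at 213 and 237 TPM. The transcripts that begin 159 and 179 bases from the Hoxa11 start, in the sequence printed above, measured 89.7 and 101 TPM and 83.7 and 83.8 TPM. Another, which begins 2612 bases upstream, measured 89.6 and 100 TPM. The 2 transcripts that cross Hoxa11 exons, with 568 and 646 bases there, measured 40.1 and 38.8 TPM and 10.1 and 12.5 TPM. The last of these is the longest of the 6, at 2118 nt.

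The short entries inside Hoxa11os were the next highest in TPM. Gm27543 measured 131 and 183 TPM on 192 and 269 counts, 25.0% and 31.9% of the Hoxa11os TPM. Gm27492 measured 92.2 and 76.7 TPM on 152 and 127 counts, or 17.5% and 13.4%. In counts both were far smaller parts of Hoxa11os, which had 9273 and 10101. In replicate 1, a single count was worth 0.684 TPM in Gm27543 and 0.607 TPM in Gm27492, but 0.0567 TPM in Hoxa11os. Gm27454 measured 23.8 and 37.3 TPM on 46.8 and 73.8 counts. Gm27543 was above Hoxa11 in both libraries and Gm27454 below it, while Gm27492 was 1.26 times Hoxa11 in replicate 1 and 0.928 times in replicate 2. At 187 and 177 nt, Gm27492 and Gm27543 are shorter than the 200 nt size limit of the RNA, and every base of both is also a base of Hoxa11os. Their reads and those of Hoxa11os cannot be told apart by position, and their fractional counts show that reads were divided.

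Gm27817 differs from the other short entries. It lies outside every annotated exon of Hoxa11os, as the lower-case letters show, and it had whole counts of 88 and 86. Its level was 35.1 and 34.0 TPM (34.5 ± 0.735), which is 6.66% and 5.94% of the Hoxa11os level. The libraries nearly coincided. Whether these reads came from a separate RNA or from unspliced Hoxa11os was not tested.

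**Figure D2:**
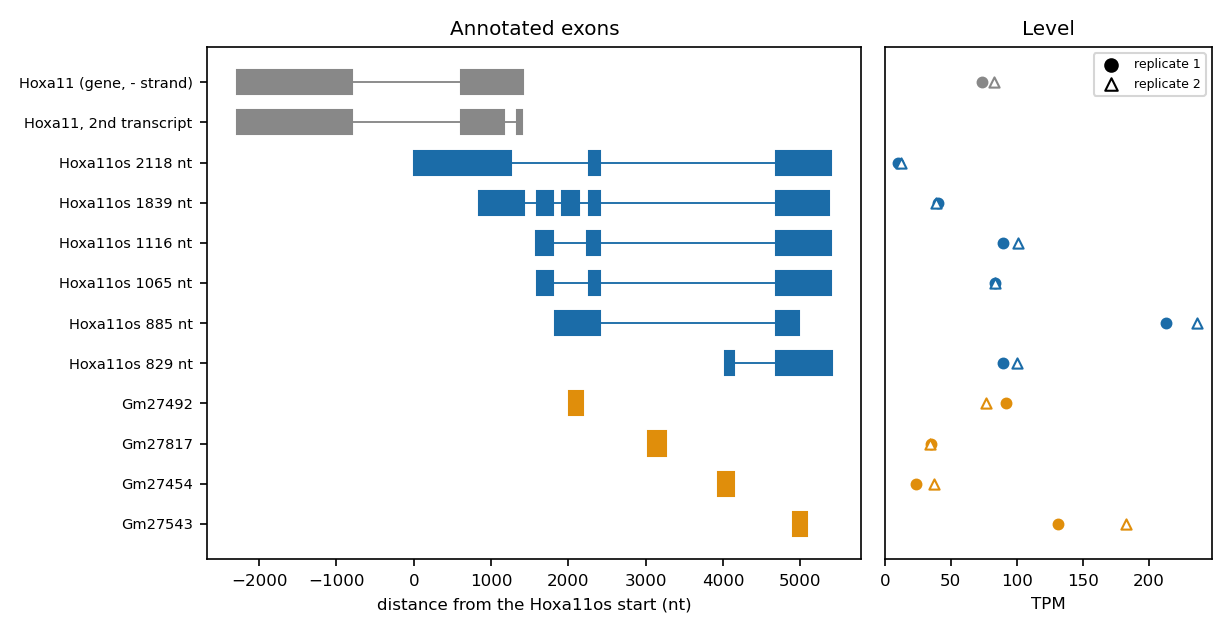
Left, annotated exons (boxes) of the Hoxa11 transcripts (grey), the 6 Hoxa11os transcripts named by length (blue) and the 4 short entries (orange), by distance in nt from the Hoxa11os start; right, TPM in replicate 1 (filled circles) and replicate 2 (open triangles), with Hoxa11 given for the whole gene. The 885 nt transcript is the highest at 213 and 237 TPM and has no exon over Hoxa11.

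Hottip (ENSMUSG00000055408.7, chr6:52262775-52267603, plus strand, lincRNA) starts 1895 bases from the start of Hoxa13 and points away from it. It measured 8.53 and 9.31 TPM (8.92 ± 0.552) on 356 and 391 counts. Hoxa13, which encodes a factor needed for the hand and foot, measured 27.2 and 28.8 TPM, so Hottip stood at 0.313 and 0.324 times its neighbour. The libraries differed by under 1 TPM. Hoxa11os was 61.7 and 61.6 times as high as Hottip. Of its 2 transcripts, ENSMUST00000152875.1 held 81.1% and 90.4% of the gene. The entries that share its exons were low or near the limit, Gm27383 at 2.18 and 3.38 TPM, Gm27985 at 0.920 and 0.740 TPM and Gm27866 at 0.160 and 0 TPM.

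9530018H14Rik (ENSMUSG00000102373.1, chr6:52256218-52257460) is the single noncoding gene of cluster A on the minus strand, the strand of the Hoxa genes. It begins 233 bases beyond the end of Hoxa13 and shares no exon base with an annotated gene. It measured 7.89 and 9.22 TPM on whole counts of 169 and 199, which is 0.290 and 0.321 times Hoxa13. Its level overlapped that of Hottip, on the other side of Hoxa13, at 0.925 and 0.990 times Hottip.

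All 6 chromatin partners reported for Hottip were detected, where 33.5% of all Ensembl genes were. The share among protein-coding genes alone is not given here. They ran from Kmt2a, an Mll methyltransferase, at 12.2 and 13.7 TPM to Dpy30, a core subunit, at 184 and 203 TPM. Whether they act with Hottip in this tissue was not tested. Wdr5, the reported binding partner, measured 59.3 and 62.0 TPM. Each of the 6 was above Hottip itself in both libraries.

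At the anterior end of cluster A, Hotairm1 (ENSMUSG00000087658.2, chr6:52156902-52162119, plus strand) measured 9.30 and 4.23 TPM on 39.1 and 20.4 counts. It was 5.41 and 2.75 times Hoxa2 (1.72 and 1.54 TPM), but in expected counts Hoxa2, at 50.9 and 46.0, was the higher. Hotairm1 was lower in replicate 2 than in replicate 1, and its range overlapped those of Hottip, 9530018H14Rik and Hoxd3os1. A short transcript of 253 nt, ENSMUST00000159006.1, held 83.5% and 77.9% of the gene, on 22.4 and 9.58 counts. Of the exon bases of Hotairm1, 23.8% are shared on the same strand with the short entries Gm27867, Gm27868 and Gm27861. Its counts are fractional, so its level rests partly on divided reads.

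Hoxaas2 (ENSMUSG00000056445.8) starts 843 bases from Hoxa2 on the opposite strand and measured 2.67 and 3.18 TPM. Hoxaas3 (ENSMUSG00000085696.4), whose body crosses several Hoxa genes from Hoxa3 on, measured 3.67 and 4.35 TPM. Gm15050 measured 1.41 and 1.40 TPM on 12 counts in each library. All 3 overlap the body of Hoxa3, which measured 6.52 and 6.48 TPM, and each was below it in both libraries. Hoxaas2 overlaps it by only 503 bases. Against Hoxa2, the nearest start, Hoxaas2 was the higher, at 1.55 and 2.06 times. Of the exon bases of Hoxaas2, 15.0% lie on exons of other genes, and of Hoxaas3 30.7%, mostly Hoxa7 and Hoxa3, so without strand part of their reads may belong to those genes. Gm29430, inside Hoxaas3, was under the limit at 0.110 and 0.130 TPM.

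Summed over cluster A, the 15 noncoding genes on the plus strand, opposite to the Hox genes, reached 838 and 931 TPM, and the 11 Hoxa genes reached 420 and 457 TPM. The noncoding genes held 65.6% and 67.2% of all TPM in the window. The share was 55.8% and 56.8% when the entries nested inside another noncoding gene were left out of the sum and the total, so the noncoding sum stayed above that of the Hoxa genes, at 1.33 times in each library. It was 41.0% and 41.4% of expected counts, since short genes weigh more in TPM. Without Hoxa11os and the nested entries, the other noncoding genes of cluster A summed to 34.4 and 32.4 TPM.

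In cluster D the highest noncoding gene was Gm28309 (ENSMUSG00000099521.1, chr2:74683446-74694194, plus strand). It measured 25.5 and 30.4 TPM, 0.559 and 0.581 times Hoxd11. Of its exon bases, 89.7% lie on exons of Hoxd11 (455 bases) or Hoxd10 (104 bases) on the same strand. Its level therefore depends on how reads were divided with 2 genes of 45.6 and 52.3 TPM and of 32.5 and 35.4 TPM. It is reported as uncertain.

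Hoxd3os1 (ENSMUSG00000052371.5, chr2:74703248-74716130, minus strand) measured 6.62 and 7.41 TPM (7.02 ± 0.559) on 89.7 and 96.8 counts. The opposing gene Hoxd3 measured 1.12 and 1.25 TPM, so the antisense gene was 5.91 and 5.93 times as high, a log2 ratio of 2.47 ± 0.01. Hoxd4, which its body also reaches, was under the limit at 0.450 and 0.660 TPM. Hoxd8, which lies inside the Hoxd3os1 body on the opposite strand, measured 6.41 and 6.34 TPM, close to Hoxd3os1 at ratios of 1.03 and 1.17. The 796 nt transcript held 63.3% and 62.4% of the gene, and 347 of its bases lie on Hoxd3 exons of the other strand, so that without strand its reads may belong to either gene. The transcripts with no base on a Hox exon were lower than Hoxd3, 1 at 0.800 and 0.730 TPM and 1 at 0 TPM. In expected counts the log2 ratio to Hoxd3 was 0.78, and by posterior mean TPM it was 2.09. Of the exon bases of Hoxd3, 62.3% are shared on the same strand, with the coding genes Gm28230 and Hoxd4. The counts of Hoxd3 are fractional, at 45.9 and 64.1, so its level rests partly on divided reads. The SD of the ratio covers the difference between libraries and not that division.

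Beside Hoxd9 lie Gm14396 on the Hox strand, at 1.43 and 2.19 TPM, and Gm28793 opposite, at 1.36 and 1.42 TPM. Gm28793 starts 141 bases from the Hoxd9 start. They share 118 exon bases with each other, on 8 to 18.6 counts, and both were far below Hoxd9 (15.8 and 15.0 TPM). At the anterior end, Haglr (ENSMUSG00000075277.4, minus strand), which starts 84 bases from Hoxd1, measured 0.840 and 0.450 TPM on 17 counts in each library. The TPM differed at equal counts, with different transcript lengths: the 443 nt transcript held 55.3% of the gene in replicate 1, on 3 counts, and none in replicate 2. Hoxd1 measured 0.330 and 0.360 TPM. By overlap of 21 bases its neighbour is Hoxd3, above, which was higher than Haglr in both libraries. Gm14424 measured 0.800 and 0.130 TPM on 12 and 2 counts, and Gm14426 had 0 counts in both, where 3 counts would be 1.07 and 1.06 TPM. The 7 noncoding genes held 12.0% and 12.2% of the TPM of the cluster D window and 3.33% and 3.31% of its counts. On the Hox strand they summed to 27.7 and 32.7 TPM, most of it Gm28309, and on the opposite strand to 8.82 and 9.28 TPM.

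**Figure D3:**
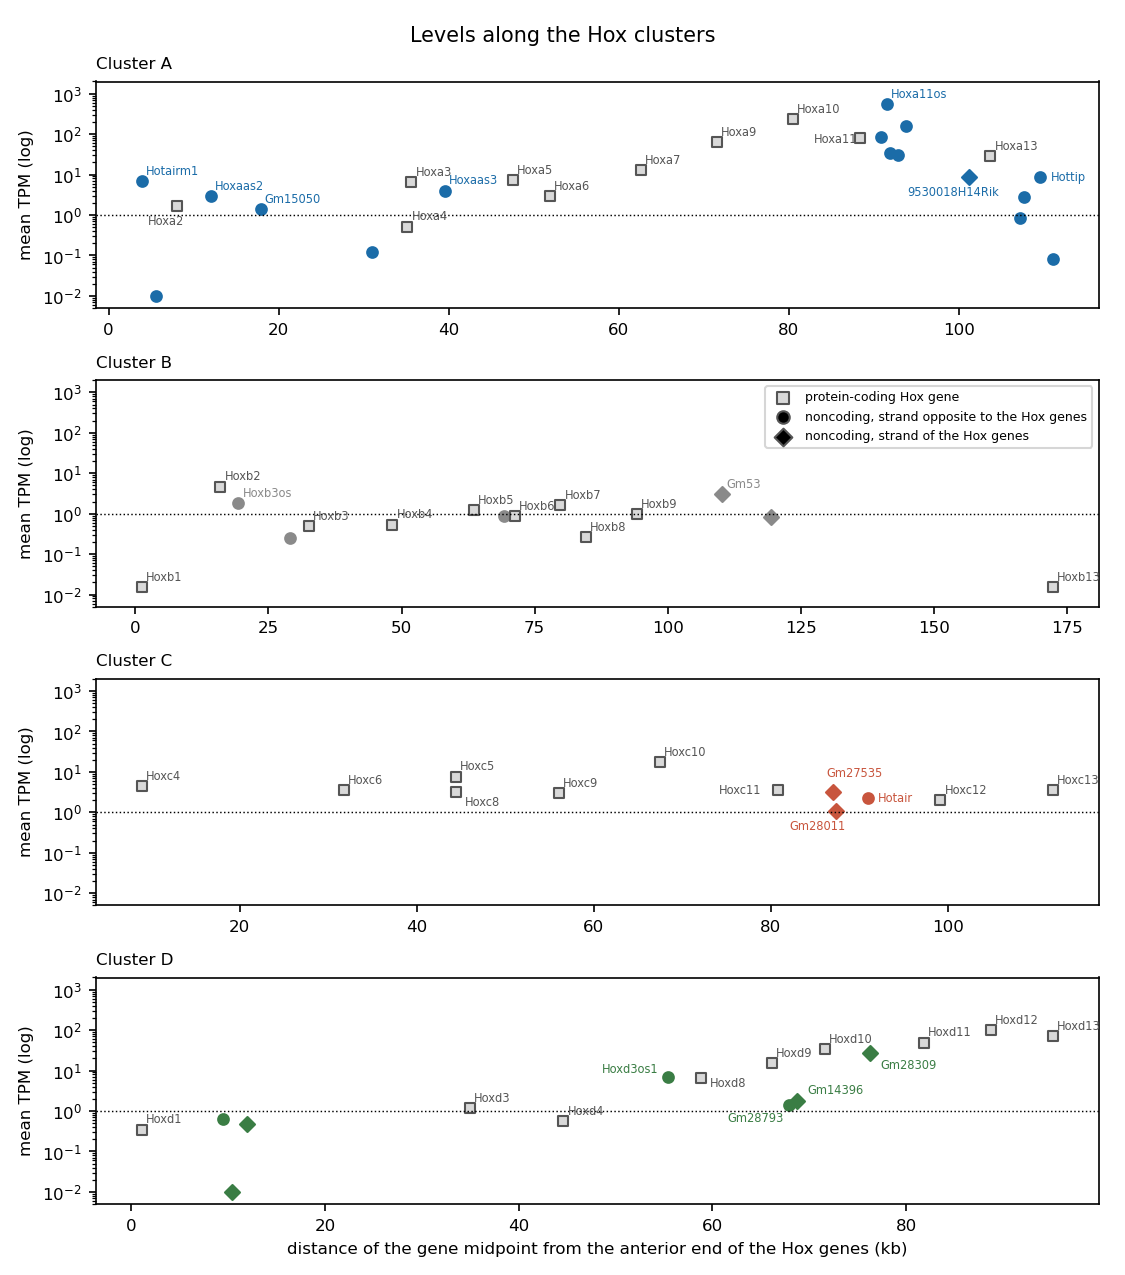
Mean TPM (log axis) of the protein-coding Hox genes reported here (grey squares) and noncoding genes (coloured circles on the strand opposite to the Hox genes, diamonds on their strand) by distance of the gene midpoint from the anterior end of each cluster in kb; the dotted line marks 1 TPM, values under 0.01 are drawn at 0.01, and noncoding labels are given at a mean of 1 TPM or more outside nested genes. In cluster A the noncoding genes form an anterior and a posterior group, with Hoxa11os (550 TPM) above all the Hoxa genes shown.

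Cluster C held Hotair (ENSMUSG00000086903.4, chr15:102944062-102947730, minus strand), a lincRNA opposite to the Hoxc genes. It measured 2.02 and 2.47 TPM (2.25 ± 0.318) on whole counts of 72 and 89. The entries that share exon bases with it were among those left out as short, and had 0 counts. That was 0.699 and 0.563 times Hoxc11 (2.89 and 4.39 TPM) and 1.22 and 1.03 times Hoxc12 (1.66 and 2.39 TPM). Hottip was 4.22 and 3.77 times as high as Hotair. All 7 chromatin partners reported for Hotair were detected, where 33.5% of all Ensembl genes were. Here too the share among protein-coding genes alone is not given, and whether the partners act with Hotair in this tissue was not tested. They ran from Rcor1, a Lsd1 corepressor, at 10.0 and 11.0 TPM to Rbbp4, a histone-binding subunit, at 473 and 508 TPM. Ezh2, the Polycomb methyltransferase, measured 133 and 132 TPM. The short entries Gm27535 and Gm28011, on the Hox strand, rested on 1 and 6 counts and on 1 and 2 counts. A single count in Gm27535 is worth 0.920 TPM in replicate 1, so its 0.920 and 5.48 TPM say little. The noncoding share of the cluster C window was 6.79% and 16.6% of TPM but 4.05% and 5.63% of counts, and the spread comes with those 2 entries, which summed to 1.62 and 6.88 TPM.

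Cluster B was low for coding and noncoding genes alike, with 2 of 10 Hox genes and 2 of 5 noncoding genes detected. Gm53 (ENSMUSG00000078706.4, chr11:96251105-96264868, plus strand, lincRNA) lies upstream of Hoxb9 and measured 2.35 and 3.67 TPM on whole counts of 50 and 85. It was 2.22 and 4.27 times Hoxb9 (1.06 and 0.860 TPM). Hoxb3os (ENSMUSG00000084844.3, chr11:96343072-96354691, minus strand) measured 1.82 and 1.86 TPM, 3.31 and 4.13 times Hoxb3 (0.550 and 0.450 TPM). Of its exon bases, 76.2% lie on exons of Hoxb3 or Hoxb2 on the other strand, so that without strand its reads and theirs cannot be told apart, and Hoxb2 at 4.24 and 5.03 TPM was above it. Hoxb5os was at 1.29 and 0.430 TPM on 12 and 4 counts. The pseudogene Gm11539 and the antisense gene Gm11536 were lower, at 1.02 and 0.680 TPM and 0.370 and 0.120 TPM. The noncoding share of the window was 38.3% and 39.8% of TPM, of sums of only 17.9 and 17.0 TPM.

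For 29 of the 31 genes, the noncoding gene was set beside its neighbouring Hox gene, the one its body overlaps most or, failing that, the one with the nearest start. In 5 pairs the noncoding gene was the higher in both libraries, namely Hoxa11os, Gm27543, Hoxd3os1, Hoxb3os and Gm53. With replicate 2 left out 8 pairs had that order. In expected counts Gm27543, whose bases all belong to Hoxa11os exons, was below Hoxa11 (log2 ratio -3.81). In 20 pairs the noncoding gene was the lower in both, and in 4 the order differed between libraries. The order can depend on the neighbour chosen. Hoxaas2 and Haglr were below Hoxa3 and Hoxd3, which they overlap, but above Hoxa2 and Hoxd1, their nearest starts. Hoxb3os, counted above as higher than Hoxb3, was below Hoxb2, its nearest start, at 0.429 and 0.370 times. The mean log2 ratio exceeded 2 SD in 22 of 29 pairs, Gm14426 among them. No p is given for single pairs, since a sign-flip test over 2 libraries cannot go below 0.5. Over the 22 of these genes that are not nested in another, 13 ran opposite to their neighbour and 9 on its strand. Of those 22 genes, 13 were detected, and the others were under the limit on 0 to 17 counts. Across the 22 genes the noncoding and neighbour levels had a Spearman rho of 0.654 and a Pearson r of 0.703 on log2 values. These are descriptions over genes that share both libraries, and several share a neighbour. Some also share exon bases with their neighbour, among them Gm28309, Hoxb3os and Hoxa11os. The levels of such a pair may rest on divided reads and are not independent.

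**Figure D4:**
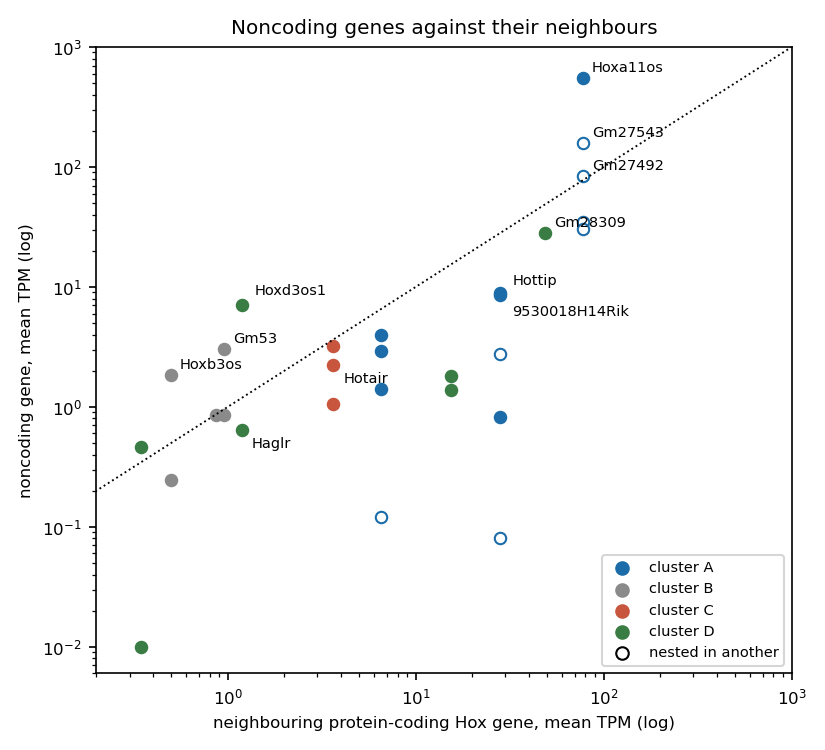
Mean TPM of the 29 paired noncoding genes against that of its neighbouring protein-coding Hox gene (both axes log), coloured by cluster, with open circles for genes nested in another noncoding gene, values under 0.01 drawn at 0.01 and the dotted line at equal levels. Hoxa11os, Hoxd3os1, Hoxb3os and Gm53 lie above the line, and Hottip, 9530018H14Rik and Hotair below it.

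Ordered by mean, the detected genes separated at the top and ran together below. Hoxa11os, Gm27543 and Gm27492 did not overlap one another or Gm27817 across libraries. Gm27817, Gm27454 and Gm28309 overlapped in turn, and so did Hottip and 9530018H14Rik. From Hoxd3os1 down to Hotair each gene overlapped the next one detected. In all, 11 of 18 neighbouring pairs in this order overlapped. By the lower of the 2 libraries, the genes just above the limit of 1 TPM were Gm28793 and Gm15050, and those just below were Gm27535 and Gm27985. Gm27861, inside Hotairm1, had 0 counts in both libraries, where 3 counts would be 1.39 and 1.38 TPM, a floor for counting error only.

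Between the replicate libraries, 23 of the noncoding genes had at least 10 counts summed and could be compared. By an exact conditional binomial test with Benjamini-Hochberg adjustment over 18580 genes, 0 of the 23 had an adjusted p under 0.05 with a fold of at least 2, where 1.67% of all genes did (311 genes). Unadjusted p was under 0.05 for 6 of the 23, beside 26.7% of all genes tested, and edgeR's exact test with a trended spread also called 0. Without the fold limit the binomial test called 3 of the 23, beside 16.0% of all genes, and all 3 were higher in replicate 2. They were Hoxa11os (log2 ratio 0.10, adjusted p = 2.05e-05), Gm27543 (0.46, adjusted p = 0.00731) and Gm53 (0.74, adjusted p = 0.0309). The median log2 ratio of the 23 genes was 0.10, beside -0.01 over all genes tested. The furthest apart were Gm14424 (-2.34, adjusted p = 0.0676 in the same exact test), Hoxb5os (-1.49, 0.239) and Hotairm1 (-0.97, 0.0825), all on few counts. Such a test compares these libraries and not conditions.

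**Figure D5:**
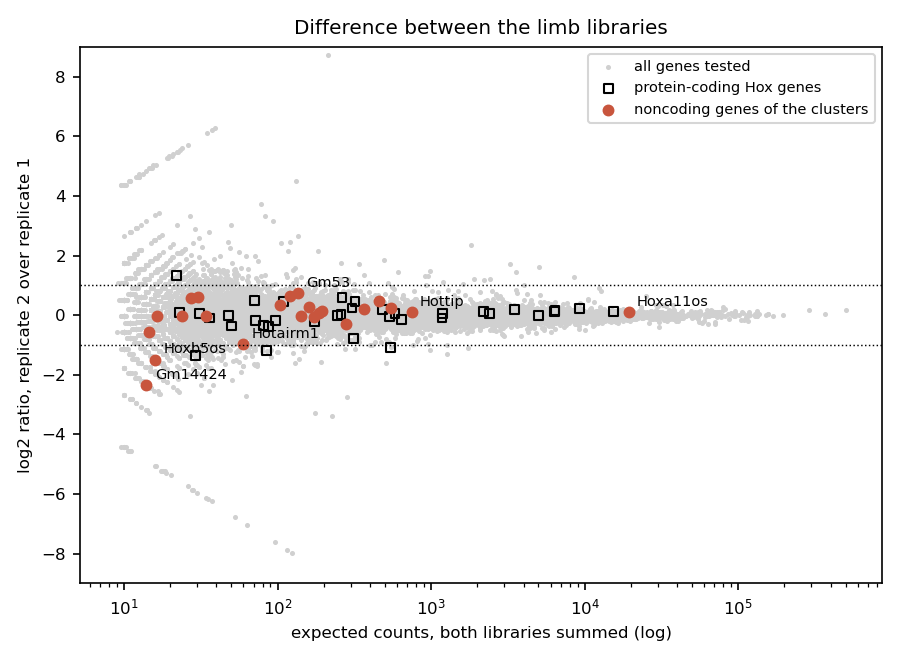
Log2 ratio of replicate 2 over replicate 1 against expected counts summed over both libraries (log axis) for all 18580 genes tested (grey), the protein-coding Hox genes reported here (squares) and the 23 noncoding genes tested (red); dotted lines mark a fold of 2. The noncoding genes with the most counts, Hoxa11os and Hottip, lie near 0 at 0.10 and 0.11, and those beyond a fold of 2 have few counts.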

How the data were processed

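Total RNA-seq tables of 2 biological replicates of 1 group were used. Build mm10 and GENCODE M4 are given in the text files deposited with each sample. No source used here names the aligner, the quantifier, the strand setting or molecular identifiers. Extraction was by mirVana, per the labels' protocols.

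Expected counts, as the authors deposited them, divide shared reads between genes, and they were rounded for tests. The deposited TPM values sum to a fixed total and use the length minus 99 nt. The deposited FPKM values served as an alternative. For each transcript the authors deposited its percent of the gene.

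Types, exons and coordinates came from GENCODE M21 (same assembly) by identifier without version, and 42462 of 43346 genes matched. Of 54 transcripts of the 31 genes, 53 had the same length in both annotations, the exception being 1 of Haglr. Promoters came from RefSeq (GRCm38.p6; 6 of 31 genes matched), from 250 bases before to 50 after the start.

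The genes, lists and comparisons were chosen with earlier results of these data known. The text names every detected gene, the highest 2 of each cluster, genes with a symbol that is not a Gm or Rik name, genes called between libraries, and the 2 nearest to the limit on each side; the remaining low genes were added after their values were seen. The results of 1 gene, and the pairs that use it, are not reported here. Log2 ratios used a pseudocount of 0.1 TPM. A count within 0.01 of a whole number was called whole. There was no second group for edgeR's quasi-likelihood test. Libraries were compared by a two-sided exact conditional binomial test on library totals, which covers counting error only and was tested on simulated data. The labels call the replicates biological and name separate pools. Alternatives changed the unit, limits, pseudocount, scaling (TMM, DESeq2 size factors) and test (edgeR's exact test), and left out 1 replicate at a time. Python 3.11.15 (matplotlib 3.10.9, pandas 2.3.3, scipy 1.17.1, numpy 2.4.6) was used for all but the edgeR 4.0.16 and DESeq2 1.42.0 steps, which ran in R 4.3.3.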

Additional observations from a re-analysis of the deposited data

Results flagged for a closer look

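Of the genes in the windows that the comparisons leave out, Evx2, one of the genes flanking cluster D, measured 5.60 and 7.02 TPM. Another 4 had a signal. Gm27477 (143 nt, under the length limit) had a mean of 3.025 TPM on 4 and 1 counts. Gm28308, typed as protein-coding, had a mean of 0.830 TPM on 20.4 counts in replicate 1 and 0 in replicate 2. 5730596B20Rik had a mean of 0.785 TPM, and Gm28230 a mean of 0.375 TPM. With no control samples, the 4 were listed because their counts in at least 1 library were above the limit that a count of 0 allows. Gm27477 and Gm28308 did not reach that limit in replicate 2.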

How the results depend on the processing

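The number of detected genes stayed within 1.5 times 19 under all alternatives run, from 13 with only genes that share under 50% of their exon bases to 23 with a limit of 0.5 TPM or with posterior mean TPM, and it was 21 with either replicate left out. The noncoding share of TPM moved with the unit, with overlapping genes and, in cluster B by posterior mean, with 0-count genes in the total. For cluster A (66.4%) it was 41.2% in expected counts. With only genes under 50% shared it was 45.9% of the full window and 57.7% of a window without the others, and without nested genes 43.4% and 56.3%. The nested alternative and the smaller totals were added after seeing the data. For cluster B (39.1%) it was 30.7% in counts, 23.5% by posterior mean TPM, and 28.5% and 31.9% with genes under 50% shared. For cluster D (12.1%) these were 3.32%, 12.4%, 3.50% and 3.82%. The cluster B total by posterior mean includes miRNA genes with 0 counts, Mir196a-1 at 17.3 and 17.1 TPM and Mir10a at 4.71 and 4.68 TPM. No noncoding gene of cluster B was lower by that measure, and Gm53 reached 5.00 and 6.26 TPM. With either replicate left out the shares ran from 65.6% to 67.2%, 38.3% to 39.8%, 6.79% to 16.6% and 12.0% to 12.2% for clusters A to D. The 5 pairs with the noncoding gene above its neighbour were 6 without replicate 1 and 8 without replicate 2. For 20 of the 29 pairs, apart from leaving out a replicate, 45 values moved by less than the replicate SD, 34 by more and 1 reversed. The reversed one was Gm27543 over Hoxa11 in counts (log2 ratio -3.81). Between libraries, 311 genes became 74 with at least 100 counts, 2972 with no fold limit, and 79 and 157 by edgeR's exact test with trended and common spread; among the noncoding genes 0 became 3 with no fold limit. No replicate can be left out of that test. No paired analysis was possible because there is 1 group. Depth limits genes below about 10 counts, where 1 count is worth up to 0.920 TPM.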

Other observations

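The RefSeq promoter windows of the noncoding genes differed in their number of CG dinucleotides, where the median over 32851 windows was 7. The Hoxa11os window held 41, more than 96.5% of all windows, and 282 of its 300 bases lie in a Hoxa11 exon. It surrounds the start of a transcript that held only 7.62% and 6.76% of the gene, not the start of the highest one. Gm15050 held 25 and Hoxb3os 19. Hottip held 6, Hoxd3os1 5 and Gm14424 4, all under the median. The window of Hoxa11 held 15, and that of Hoxa13, across from Hottip, held 45. These counts describe the reference sequence and were not tested against the levels.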
